A study of Mus musculus with 6 samples.

Results

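De novo lipogenesis is the making of fatty acids from acetyl-CoA, and 10 of its genes were followed in mouse liver: Acly, Acss2, Acaca, Acacb, Fasn, Elovl6, Scd1, Me1, Thrsp and Mid1ip1. They were taken as a list of symbols and matched to array probes through the RefSeq accession of each probe. All 10 were among the 14807 genes measured, through 17 probes. The mice were male ICR animals, an outbred stock, of 18 to 22 g, split at random into a control arm and an arm given deproteinized extract of calf blood (DECB), with 12 of the 24 mice in each arm. Controls received normal saline and treated mice received DECB, both into the stomach, at a daily volume of 0.08 mL for every 20 g of mouse, over 35 days. Arrays of 3 control livers (control 1, 2 and 3) and 3 DECB livers (DECB 4, 5 and 6) were analysed. The sample descriptions name day 1 for controls and day 30 for DECB, which conflicts with 35 days of dosing. The study also timed how long mice tolerated a closed container. The labels do not say if the livers came from before or after it, nor the age or feeding state of the mice. They also do not link arrays to individual mice, so the p-values reflect only the scatter among these 6 samples, part or all of which may be technical.

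In the liver, citrate leaves the mitochondrion and is split by ATP citrate lyase to acetyl-CoA, which acetyl-CoA carboxylase turns into malonyl-CoA. Fatty acid synthase builds palmitate from malonyl-CoA with NADPH, and an elongase and a desaturase then turn palmitate into longer and unsaturated acids. The carboxylase made from Acaca is cytosolic and feeds synthesis, whereas that made from Acacb sits at the mitochondrial outer membrane, where its malonyl-CoA inhibits carnitine palmitoyltransferase 1 and with it the entry of fat for oxidation. Insulin through SREBP-1c and glucose through ChREBP are the textbook activators of this program in hepatocytes.

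The 10 genes did not differ in a common direction between DECB and control livers. Mid1ip1 and Thrsp were higher in DECB, by 4.13-fold and 2.83-fold, and Acacb was 3.35-fold lower, with no overlap between the groups for any of these genes. Elovl6 and Acss2 were also lower without overlap, by 1.82-fold and 1.65-fold, Acss2 by its brightest probe only. Acly and Fasn were higher on average, and Acaca, Scd1 and Me1 lower, all with overlapping groups.

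None of the 10 passed limma at a Benjamini-Hochberg adjusted p under 0.05, a threshold that 0.466% of all genes passed (0.209% higher and 0.257% lower in DECB). At an unadjusted p under 0.05 there were 4 of 10 (Acacb, Thrsp, Mid1ip1 and Elovl6), against 10% of all genes. Of these 2 were higher, against 4.22% of all genes, and 2 lower, against 5.79%. The groups did not overlap for 5 of 10, against 16.6% of all genes: 2 were higher (7.24% of all genes) and 3 lower (9.4%). The median difference over the 10 genes, DECB minus control, was -0.37 on the log2 scale, against -0.03 over all genes. The median size of the difference, whatever its sign, was 0.75 against 0.31.

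The arrays fell into 3 scan times in the file headers. Scan 1 held control 1 and DECB 6, scan 2 held controls 2 and 3 and DECB 4, and scan 3 held DECB 5 alone. The scan 1 arrays were dimmer, with a 75th percentile of the signal 3.75 and 4.04 times the local background against 25.0 to 30.6 times on the other arrays. Values below are log2 signals relative to the 75th percentile of their own array. The brightest probe of each of the 10 genes was well above background on all 6 arrays. All 8 hepatocyte markers reached that level on every array, with a summed signal of 2764 to 3263 times the 75th percentile in controls and 2407 to 2916 in DECB. In bulk liver RNA, fewer cells of a type and less RNA per cell cannot be told apart.

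**Figure D1:**
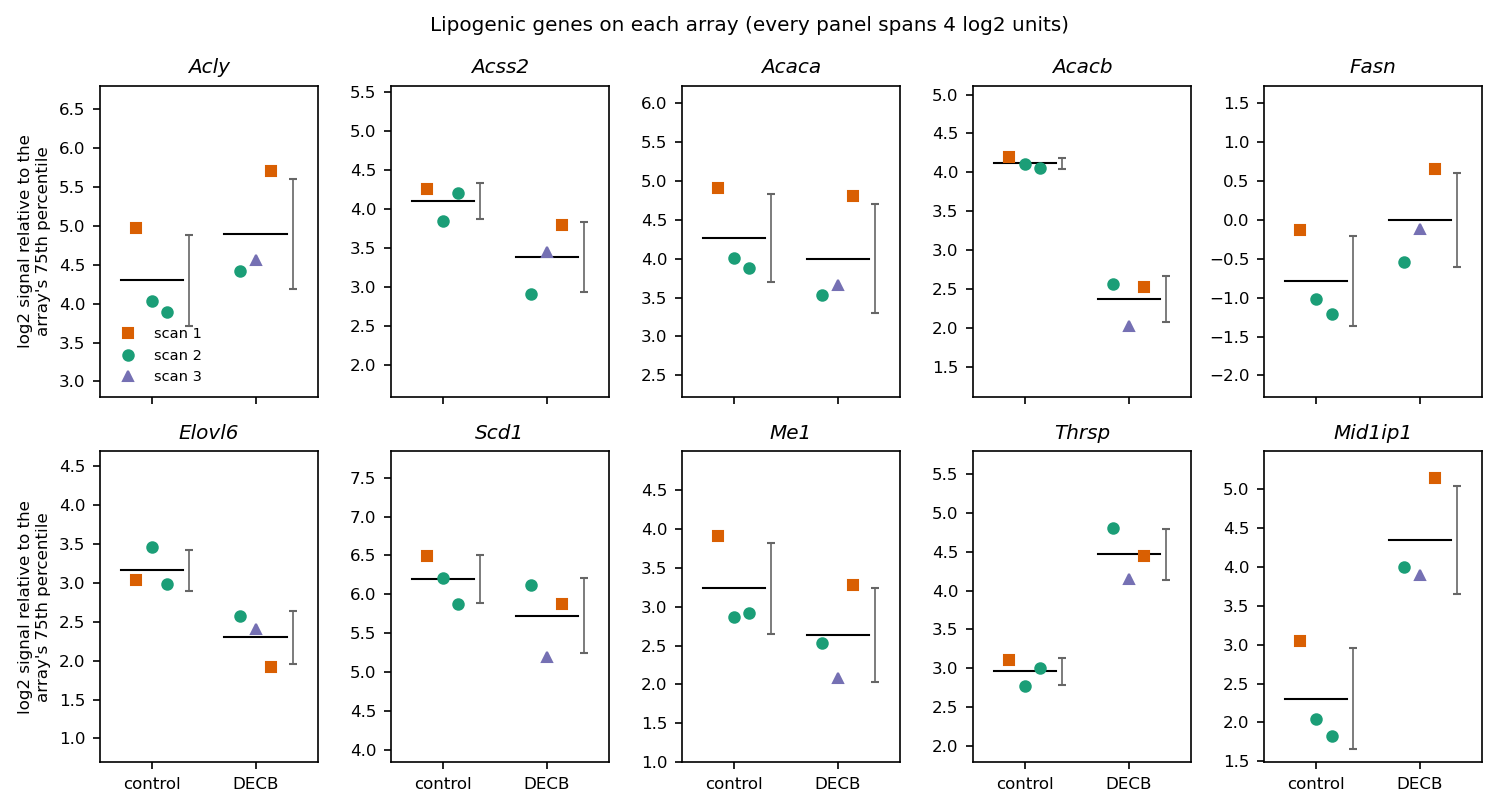
Log2 signal of each gene relative to the 75th percentile of its array, for 3 control and 3 DECB arrays. Points are arrays, with shape and colour giving the scan, horizontal lines are group means and bars beside them are SDs. Acacb, Thrsp and Mid1ip1 show the widest gaps between the groups. The scan 1 squares lie above the other arrays of their group for Acly, Acss2, Acaca, Fasn, Me1 and Mid1ip1, by little for Acss2 in controls.

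Of the carboxylases, Acacb was lower on every DECB array than on any control, and the groups overlapped for Acaca. Acacb (probe A_55_P2019054) was at 4.19, 4.10 and 4.05 in controls 1, 2 and 3 and at 2.57, 2.03 and 2.52 in DECB 4, 5 and 6. The 3 controls lay within a narrow band and every DECB array lay well below it. The group means were 4.12 ± 0.07 and 2.37 ± 0.30 (SD, n = 3), a difference of -1.74 (SE 0.28, 95% interval -2.41 to -1.08, limma adjusted p = 0.0655). Acacb ranked 95 of 14807 genes by p. Its dimmer probe, well above background on 5 of 6 arrays, was at -0.81, -1.17 and -1.08 in controls and -1.90, -2.37 and -2.31 in DECB, also with no overlap, a difference of -1.17.

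Acaca (probe A_55_P2019058) was at 4.91, 4.0 and 3.88 in controls and at 3.53, 3.66 and 4.80 in DECB. The groups overlapped, since control 1 and DECB 6 were both high. The difference was -0.27 (SE 0.46, 95% interval -1.36 to 0.82, limma adjusted p = 0.988), and it was 0.06 without control 1. Of its other probes, 1 was well above background on 4 arrays and differed by 0.05, and 1 was on none.

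Set against Acaca within the same array, Acacb was at -0.72, 0.10 and 0.17 in controls and at -0.96, -1.63 and -2.29 in DECB. Every DECB array lay below every control, by 1.48 on average, and the change was -1.56 within scan 1 and -1.10 within scan 2. The exact permutation test gave p = 0.1, the smallest that 3 against 3 arrays allow (2 comparisons, adjusted p = 0.2). These are differences of log2 signals of 2 probes, and they give no ratio of transcript amounts.

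Thrsp and Mid1ip1 encode related small proteins, known as Spot 14 and MIG12, that bind each other. MIG12 makes acetyl-CoA carboxylase assemble into its active polymers, and Thrsp is a classic thyroid hormone and carbohydrate response gene. Thrsp (probe A_55_P2018666) was at 3.11, 2.77 and 3.01 in controls and at 4.81, 4.15 and 4.44 in DECB. Each DECB array was above each control, with means of 2.96 ± 0.17 and 4.47 ± 0.33 (SD, n = 3). The difference was 1.5 (SE 0.30, 95% interval 0.80 to 2.20, limma adjusted p = 0.1005).

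Mid1ip1 (probe A_55_P2041723) was at 3.04, 2.04 and 1.82 in controls and at 4.0, 3.90 and 5.15 in DECB. The groups again did not overlap, and the scan 1 array was the highest of each group. The means were 2.3 ± 0.65 and 4.35 ± 0.69 (SD, n = 3), a difference of 2.05 (SE 0.48, 95% interval 0.91 to 3.18, limma adjusted p = 0.155), the largest among the 10 genes. Within an array, Thrsp minus Mid1ip1 was 0.07, 0.73 and 1.18 in controls and 0.81, 0.25 and -0.71 in DECB. These ranges overlapped (difference -0.54, exact permutation p = 0.5, adjusted p = 0.5).

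**Figure D2:**
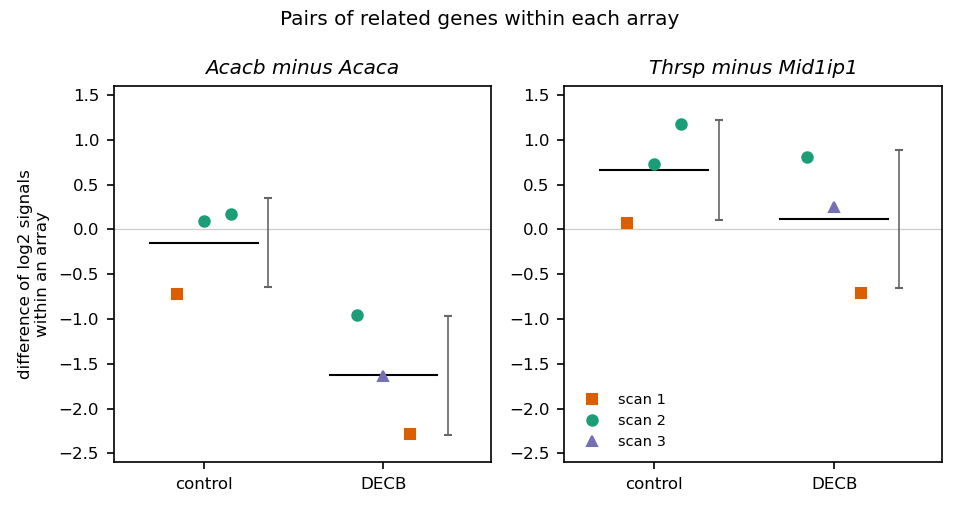
Difference of log2 signals within each array for Acacb minus Acaca (left) and Thrsp minus Mid1ip1 (right), with means as lines and SDs as bars. The Acacb minus Acaca values of DECB, -2.29 to -0.96, lie below those of controls, -0.72 to 0.17, and the other pair overlaps.

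Promoter sequences of the 3 genes with the largest differences are shown because Thrsp and Mid1ip1 were higher together while Acacb was lower. They are the 160 bases before the RefSeq start on GRCm38.p6, 5′ to 3′ on the gene's strand, at chr7:97417551-97417710 (minus strand) for Thrsp, chrX:10717205-10717364 (plus strand) for Mid1ip1 and chr5:114165358-114165517 (plus strand) for Acacb. Capitals mark a CCAAT box (CCAAT or its complement) or a GC box (GGGCGG or its complement).
Thrsp: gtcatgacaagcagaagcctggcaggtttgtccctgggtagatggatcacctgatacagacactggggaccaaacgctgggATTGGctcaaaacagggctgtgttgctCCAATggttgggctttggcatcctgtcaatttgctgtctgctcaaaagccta
Mid1ip1: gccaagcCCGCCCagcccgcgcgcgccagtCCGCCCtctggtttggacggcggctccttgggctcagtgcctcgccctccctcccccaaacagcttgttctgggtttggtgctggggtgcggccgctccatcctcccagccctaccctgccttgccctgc
Acacb: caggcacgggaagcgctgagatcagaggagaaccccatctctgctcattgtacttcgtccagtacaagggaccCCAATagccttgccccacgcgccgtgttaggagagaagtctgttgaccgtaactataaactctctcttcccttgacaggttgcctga

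Thrsp held 2 CCAAT boxes, starting 79 and 52 bases before the start, and Acacb held 1, at 87 bases. Mid1ip1 held 2 GC boxes, at 153 and 130 bases, and no CCAAT box. The Acacb start used here lies inside the span of longer predicted transcripts of the gene. RefSeq's table held 10 such windows for 9 of the 10 genes, Scd1 being unmatched and Me1 having 2. Over the 250 bases before the start, on both strands, CCAAT was found in windows of 5 of these genes (Acss2, Acacb, Thrsp, Me1 and Fasn, with 3 in Fasn) and in 33.9% of all 32851 windows. GGGCGG was found in windows of 4 genes (Acss2, Me1, Acly and Mid1ip1) and in 32.7% of all. The E-box CACGTG (6.02% of all windows) and the sterol element TCACNCCAC (1.05%) were found in none of the 10 windows, which says only that these letters are not in this stretch. None of the motifs searched for was found in both Thrsp and Mid1ip1, and control by a common factor was not tested.

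Of the genes that supply acetyl-CoA, Acly encodes ATP citrate lyase and Acss2 the cytosolic acetyl-CoA synthetase that activates acetate. Acly (probe A_55_P2025954) was at 4.97, 4.04 and 3.89 in controls and at 4.42, 4.57 and 5.71 in DECB. The groups overlapped only through control 1, which lay above DECB 4 and 5. The difference was 0.60 (SE 0.47, limma adjusted p = 0.826), and it was 0.19 without DECB 6 and 0.93 without control 1. A dimmer probe for another Acly transcript differed by 0.83.

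Acss2 (probe A_55_P1988789) was at 4.26, 3.84 and 4.21 in controls and at 2.91, 3.45 and 3.79 in DECB. The groups were separated by a small margin, with control 2 just above DECB 6. The difference was -0.72 (SE 0.33, 95% interval -1.50 to 0.06, limma adjusted p = 0.541). The second Acss2 probe, well above background on all arrays, differed by only -0.19 and was higher in DECB 6 than in control 1, so the probes disagree in size.

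Fasn, the synthase itself, was measured by 1 probe (A_52_P100252). It was at -0.13, -1.02 and -1.22 in controls and at -0.54, -0.12 and 0.66 in DECB. DECB 4 lay below control 1 and the other DECB arrays lay above all controls. The difference was 0.79 (SE 0.44, 95% interval -0.25 to 1.82, limma adjusted p = 0.668), and it was 0.79 within scan 1 and 0.57 within scan 2. It was 0.46 without DECB 6 and 1.11 without control 1.

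Me1 encodes cytosolic malic enzyme, a source of NADPH for the synthase. Its brightest probe (A_55_P2009952) was at 3.91, 2.87 and 2.92 in controls and at 2.53, 2.08 and 3.28 in DECB. DECB 6 lay above controls 2 and 3 and below control 1, its partner on scan 1. The difference was -0.60 (SE 0.44, limma adjusted p = 0.797), and it became -0.27 when control 1 was left out, -0.33 for DECB 5 and -0.93 for DECB 6. The other probes of Me1 differed by -0.96 and -0.58, so all 3 were lower in DECB on average.

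Elovl6 elongates palmitate to stearate and Scd1 is the main hepatic stearoyl-CoA desaturase. Elovl6 (probe A_51_P463440) was at 3.04, 3.46 and 2.98 in controls and at 2.57, 2.41 and 1.92 in DECB. All DECB arrays lay below all controls, with DECB 6 the lowest. The difference was -0.86 (SE 0.31, 95% interval -1.59 to -0.13, limma adjusted p = 0.4). Scd1 (probe A_52_P682382) was at 6.49, 6.21 and 5.88 in controls and at 6.11, 5.19 and 5.87 in DECB. DECB 4 lay above control 3, so the groups overlapped. The difference was -0.47 (SE 0.35, 95% interval -1.29 to 0.36, limma adjusted p = 0.806), with -0.62 within scan 1 and 0.07 within scan 2. It was -0.20 without DECB 5.

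The direction was the same within scan 1 and within scan 2 for 9 of the 10 genes, all but Scd1, and for 65.2% of all genes. For the 5 genes without overlap between the groups that agreement is fixed by the lack of overlap. Acacb differed by -1.67 and -1.51 within scans 1 and 2, Thrsp by 1.33 and 1.92 and Mid1ip1 by 2.11 and 2.07. With scan as a block, limma called 6.65% of all genes and 3 of the 10, with 2 higher (2.73% of all genes) and 1 lower (3.92%). In this blocked fit Mid1ip1 rose, with a difference of 2.08 (SE 0.16, limma adjusted p = 0.0178), and Thrsp rose, with a difference of 1.67 (SE 0.21, limma adjusted p = 0.0293). Acacb fell, with a difference of -1.58 (SE 0.15, limma adjusted p = 0.0198). That fit has 2 residual degrees of freedom, DECB 5 adds nothing to its contrast, and its error rests in part on how far controls 2 and 3 lay apart. For the 10 genes that distance ran from 0.05 (Acacb) to 0.48 (Elovl6). Without scan 1 the differences were -1.78 for Acacb, 1.59 for Thrsp and 2.02 for Mid1ip1 (limma adjusted p = 0.0594, 0.0856 and 0.0484). When controls 2 and 3 were averaged into 1 sample they were -1.76, 1.46 and 1.86 (limma adjusted p = 0.331, 0.453 and 0.575).

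**Figure D3:**
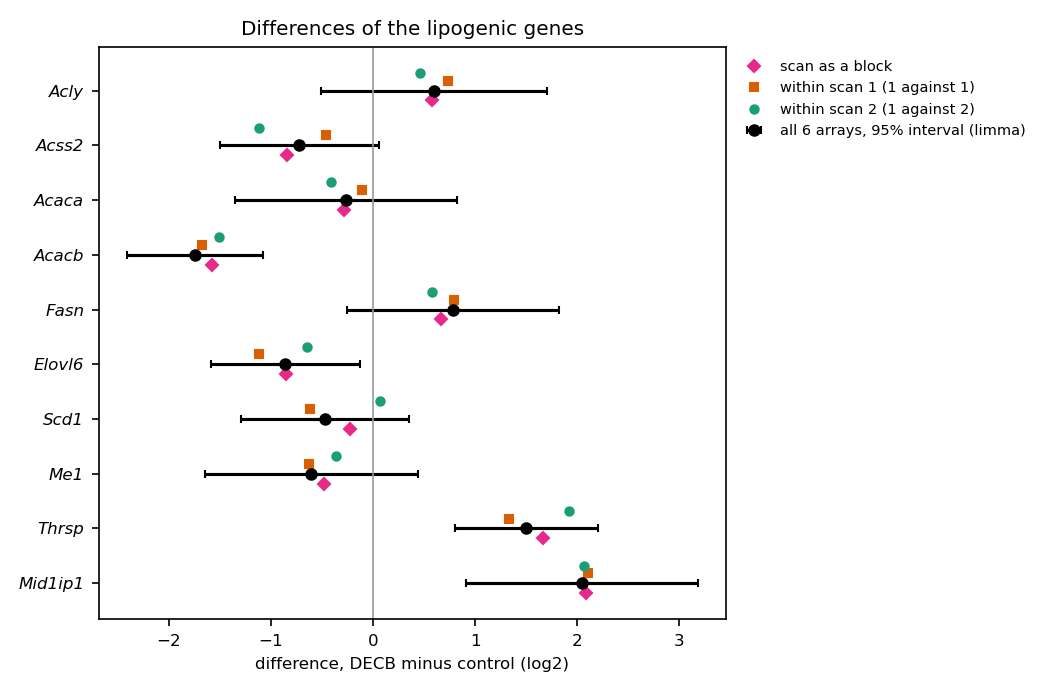
Difference of each gene, DECB minus control on the log2 scale, from all 6 arrays with its 95% interval (black), with scan as a block (diamonds), within scan 1 (squares) and within scan 2 (circles). The intervals of Acacb, Elovl6, Thrsp and Mid1ip1 leave out 0 before adjustment over all genes, and for Scd1 the scan 2 value, 0.07, lies on the other side of 0.

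The 10 genes also differed in how far the scan 1 array stood from the others of its group. Mid1ip1, Acly, Acaca, Fasn and Me1 were 1.11, 1.01, 0.97, 0.99 and 1.01 higher in control 1 than in the mean of controls 2 and 3. In DECB 6 they were 1.20, 1.21, 1.21, 0.99 and 0.97 higher than in the mean of DECB 4 and 5. The steps were thus of like size in both groups, and the part of the dimmer scan in them was not tested. Acss2 and Scd1 had smaller steps, of 0.23 and 0.44 in controls and 0.62 and 0.22 in DECB. Acacb and Thrsp had steps of 0.12 and 0.22 in controls and 0.22 and -0.04 in DECB, and Elovl6 was lower on scan 1 in both groups (-0.18 and -0.57). A step of at least 0.5 in both groups, a limit chosen after the values were seen, held for 5 of the 10 genes and for 29.8% of all genes.

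**Figure D4:**
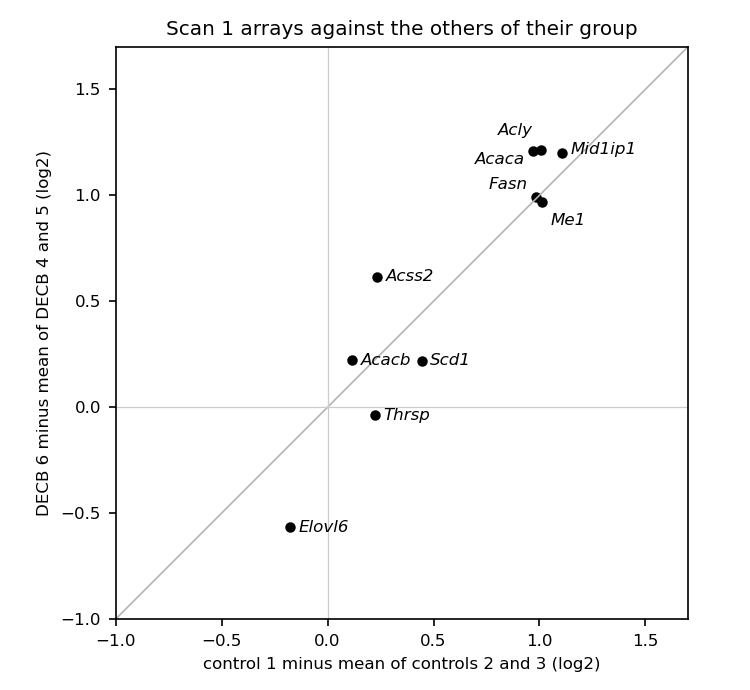
For each gene, the control 1 signal minus the mean of controls 2 and 3 (horizontal) against the DECB 6 signal minus the mean of DECB 4 and 5 (vertical), in log2 units, with the line of equality. Mid1ip1, Acly, Acaca, Fasn and Me1 lie near 1 on both axes, and Acacb, Thrsp and Elovl6 lie at or below 0.23 on both.

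Of 20 regulators of lipogenesis tested 0 passed limma over all genes. The regulators had 3 higher and 4 lower at an unadjusted p under 0.05 (all genes, 4.22% and 5.79%), and their median was -0.24. With scan as a block 3 rose and 3 fell, against 2.73% and 3.92% of all genes. Among them were Srebf1, Insig1, Insig2 and Scap (limma adjusted p = 0.0323, 0.0265, 0.0316 and 0.0255). Srebf1, which encodes SREBP-1, was at 0.84, 0.08 and 0.02 in controls and at 1.34, 1.95 and 2.86 in DECB. The groups did not overlap, and the difference was 1.74 (SE 0.46, limma adjusted p = 0.206). Insig1, an SREBP target that holds SREBP in the endoplasmic reticulum, differed by 2.21 (limma adjusted p = 0.116). Insig2, its paralog, and Scap, which escorts SREBP to the Golgi, differed by -1.26 and -1.38 (limma adjusted p = 0.129 and 0.169), with no overlap for either. Mlxipl, which encodes ChREBP, was at 6.04, 4.92 and 4.81 in controls and at 3.87, 4.46 and 5.85 in DECB, with overlap and a difference of -0.53 (limma adjusted p = 0.927). With 1 array left out that difference ran from -1.09 (without DECB 6) to -0.10 (without DECB 4), and it was -0.14 without control 1.

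Among genes of carboxylase control and malonyl-CoA use, 0 of 13 passed and 1 was lower at an unadjusted p under 0.05 (all genes, 5.79%). Their median was -0.18, and it turned to 0.10 without control 1 and 0.09 without DECB 4. Cpt1a, the carnitine palmitoyltransferase that malonyl-CoA inhibits, was at 4.92, 3.80 and 3.88 in controls and at 1.91, 1.47 and 2.87 in DECB. Like Acacb it was lower on every DECB array than on any control, with a difference of -2.12 (SE 0.48, limma adjusted p = 0.143). Mlycd, which degrades malonyl-CoA, differed by -0.88 with overlapping groups (limma adjusted p = 0.703), and Prkab2, a subunit of the kinase AMPK that inactivates the carboxylases, by 0.36 (limma adjusted p = 0.826). The blocked fit called 2 of the 13 lower and 0 higher, against 3.92% and 2.73% of all genes. These were Cpt1a and Mlycd (limma adjusted p = 0.0178 and 0.046). Cpt1a also fell with normexp correction (limma adjusted p = 0.0415), a fit that called 0.351% of all genes.

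Genes supplying carbon and NADPH numbered 17 tested, of which 0 passed. Of these 1 was higher and 2 were lower at an unadjusted p under 0.05 (all genes, 4.22% and 5.79%). Pklr, liver pyruvate kinase and a ChREBP target, was at 1.76, 0.66 and 0.09 in controls and at -1.21, -1.50 and -0.41 in DECB, a difference of -1.88 (limma adjusted p = 0.215). Slc2a2, the liver glucose transporter, differed by -1.21, and Pgd, a pentose phosphate enzyme that makes NADPH, by 0.98 (limma adjusted p = 0.458 and 0.487). All 3 were without overlap between the groups. The blocked fit called 2 of the 17 lower and 0 higher, against 3.92% and 2.73% of all genes. These were Pklr and Slc2a2 (limma adjusted p = 0.0331 and 0.0336).

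Downstream of the synthase, 0 of 16 other desaturation and elongation genes passed. Of these 2 were higher and 2 lower at an unadjusted p under 0.05 (all genes, 4.22% and 5.79%). Elovl2, an elongase of polyunsaturated acids, differed by -1.28 (limma adjusted p = 0.187). With scan as a block 1 gene of this list rose and 2 fell, against 2.73% and 3.92% of all genes. Elovl2 was among those that fell (limma adjusted p = 0.0468). Scd2 and Elovl3 differed by 1.12 and 2.45 (limma adjusted p = 0.358 and 0.431). Control 1 was the lowest array for both, where their probes were dim (-3.07 and -4.15). Their differences were 2.05 and 4.39 within scan 1, 0.38 and 0.44 within scan 2, and 0.37 and 1.17 with normexp correction. Scd1 and Elovl6 were lower on average, opposite in sign to Scd2 and Elovl3, whose size depended on the scan. Of 15 triglyceride synthesis genes 0 passed, with 2 higher and 4 lower at an unadjusted p under 0.05 (all genes, 4.22% and 5.79%). Their median was -0.43, and it was -0.22 with quantile normalization and -0.69 within scan 2. Lpin2 and Lpin1, phosphatidate phosphatases, and Acsl1, a fatty acid activating enzyme, differed by -1.88, -1.20 and -1.32 without overlap (limma adjusted p = 0.0903, 0.159 and 0.137). With scan as a block 4 genes of this list fell, against 3.92% of all genes. Lpin2, Lpin1 and Acsl1 were among them (limma adjusted p = 0.0178, 0.046 and 0.0309), and Lpin2 also fell without scan 1 (limma adjusted p = 0.0484).

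Mitochondrial fatty acid synthesis, a separate pathway that makes the precursor of lipoic acid, had a median of 0.03 over 8 genes (-0.11 without control 1 and -0.08 without DECB 4), with 0 past the threshold and 0 at an unadjusted p under 0.05. Its members of smallest p, Cbr4, Oxsm and Mcat, differed by -0.66, -0.44 and -0.23 (limma adjusted p = 0.55, 0.851 and 0.93). Sterol synthesis genes, which also start from acetyl-CoA, had a median of 0.87 over 21 genes. Of these 18 were above 0 and 2 rose, against 47.5% and 0.209% of all genes. Of the 10 lipogenic genes 4 were above 0, near the share of all genes. The genes that rose were Sqle and Mvd, by 3.41 and 3.53 (limma adjusted p = 0.0318 and 0.039). With scan as a block 7 sterol genes rose, against 2.73% of all genes. The main calls of Sqle and Mvd were lost when control 1, 2 or 3 or DECB 4 or 5 was left out (limma adjusted p of 0.0563 to 0.203 for Sqle and 0.0837 to 0.221 for Mvd). Lipogenic and sterol genes were not compared by a test.

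**Figure D5:**
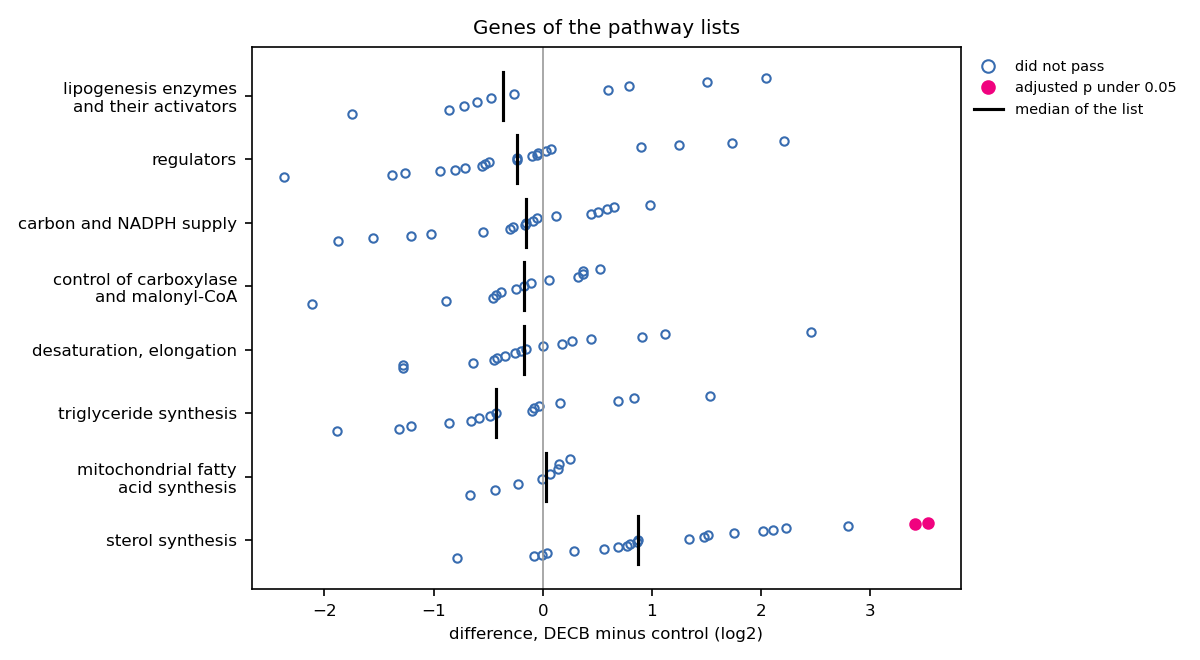
Difference of each tested gene, DECB minus control on the log2 scale, by list, with the list's median as a vertical line and filled points for genes at a limma adjusted p under 0.05. The lipogenic genes spread from -1.74 to 2.05 around a median of -0.37, and the 2 filled points are Sqle and Mvd of the sterol list, whose median is 0.87.

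Adipose tissue also expresses lipogenic genes, so its markers were read beside them. Adipoq, Lep and Cfd, 3 of the 8 listed adipocyte markers, were well above background on no array. The summed signal of the 8, in units of the array's 75th percentile, was 3.11 to 5.37 in controls and 4.07 to 8.66 in DECB. Fabp4 alone was well above background on all 6 arrays, and it made up most of the sum on each. Fabp4 differed by 0.66 with overlapping groups (limma adjusted p = 0.711). Summed Kupffer cell markers (7 genes) ran from 20.4 to 27.3 in controls and 20.1 to 22.9 in DECB, and endothelial markers (7 genes) from 21.8 to 40.0 and 15.7 to 31.8. Stellate cell markers (7 genes) ran from 26.5 to 52.8 and 16.6 to 37.6. Leukocyte markers (7 genes) ran from 5.87 to 6.33 and 6.02 to 8.82, and pancreatic acinar markers (6 genes) from 2.13 to 2.92 and 2.82 to 3.41. The leukocyte low end of 6.02 is the sum of DECB 4, which lacks Cd3e because that gene had no value there. That sum is thus too low to be compared with the other arrays. Cholangiocyte markers (6 genes) were at 1.03 to 1.46 in controls and 1.59 to 2.08 in DECB, without overlap. S100a8 and S100a9, genes of neutrophils, differed by 1.57 each (limma adjusted p = 0.101 and 0.167), with every DECB array above every control. Sox9 and Krt19, genes of bile duct cells, differed by 1.0 and 0.76 (limma adjusted p = 0.435 and 0.466), with overlap for Sox9 and none for Krt19. Krt19 was dim, well above background on 4 arrays. Of the other cholangiocyte markers, Cldn7 differed by -0.10 and Spp1 by 0.68. Krt7 and Epcam were well above background on 0 and 1 arrays. At an unadjusted p under 0.05, 2 of 7 leukocyte and 2 of 4 cholangiocyte genes tested were higher, against 4.22% of all genes. Of 6 stellate cell genes tested 1 was lower, against 5.79%, and the other lists had 0 in either direction. No marker of these lists passed limma, and their part in the lipogenic differences was not tested.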

How the data were processed

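Each array file is the output of a 1-colour Agilent scan, read with Agilent Feature Extraction 11.0.1.1, per the file headers and the submitters' processing notes. Per the file headers, the deposited intensity used here (the processed signal) is net of background and of a spatial trend, and arrays were not normalized to each other. The labels name no test. The authors' value table holds deposited log2 values, each column with a median of 5.34. How it was made and centred, and its direction, are not given in the sources used here. It was not used, because its DECB minus control differences did not follow the scanner values (r = -0.058 over 25315 probes) and 1 of 6 columns was closest to its own array. Read as labelled, that table has the opposite sign for the genes with the largest differences here, at -1.11 for Mid1ip1, -0.78 for Thrsp and 0.79 for Acacb. By the probes used here, Elovl6, Scd1 and Me1 also have the opposite sign. Acss2, Acaca, Acly and Fasn have the same sign, so the table is not a plain reversal.

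Here log2 of that signal was centred on the 75th percentile of the array (43020 non-control spots), leaving out outlier spots. Spots of a probe were averaged. A probe had to be well above background on 3 or more of the 6 arrays to be kept (25423 of 39429). Names came from RefSeq (GRCm38.p6) for 27234 probes, and a gene was represented by its brightest kept probe. Of the 17 probes of the 10 genes 16 were kept. limma 3.58.1 in R 4.3.3 (lmFit, eBayes, two-sided, Benjamini-Hochberg over 14807 genes) compared 3 DECB with 3 control arrays. The fit was tested on simulated data with independent noise on each array and no scan structure, so that test does not bear on scan effects. The number of arrays limits precision. Controls 2 and 3 correlated more closely (r = 0.992 across genes) than other pairs (0.901 to 0.968) and were kept as separate samples. The array design names mm9, so promoter positions are RefSeq's own.

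The genes and lists were chosen with earlier results of these data known. All 10 lipogenic genes were named. Of each other list, genes past the threshold or, where fewer than 3 passed, the 3 of smallest p were named, with Cpt1a, Srebf1 and Mlxipl always. One gene that this rule names is not reported here. Cell type markers were summed over the brightest probe of each gene. Alternatives were normexp background correction, quantile and bright-probe scaling, other filters on dim probes, the mean of a gene's probes, scan as a block, single scans, controls 2 and 3 averaged, and each array left out. The normexp alternative used the median spot signal, because the files hold no mean signal.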

Additional observations from a re-analysis of the deposited data

How the results depend on the processing

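Over 17 alternatives, 8 of the 10 genes kept their direction. The exceptions were Acaca, at 0.057 without control 1 (with 1 array left out, -0.67 to 0.057), and Scd1, at 0.069 within scan 2. Acacb ran from -1.84 to -1.46, Thrsp from 1.33 to 1.92 and Mid1ip1 from 1.65 to 2.42. Their limma adjusted p ran from 0.0198 to 0.353, 0.0293 to 0.516 and 0.0178 to 0.584. Of the 10 genes, 2 were called higher and 1 lower with scan as a block, 1 lower (Acacb) with probes required on all 6 arrays, and 1 higher (Mid1ip1) without scan 1. These fits called 6.65%, 1.06% and 0.527% of all genes. With 1 array left out 0 of the 10 were called, and their median ran from -0.61 to -0.10. Acacb minus Acaca then ran from -1.81 to -1.15, and Thrsp minus Mid1ip1 from -0.89 to -0.13. Over all genes limma called 31 higher and 38 lower. These counts became 403 and 578 with scan as a block, 16 and 23 with quantile normalization, and 0 and 2 (883 at an unadjusted p under 0.05) with controls 2 and 3 averaged. They were 55 higher with bright-probe scaling, and 0 and 0 (1257 at an unadjusted p under 0.05) with no filter on dim probes. With 1 array left out they ran from 0 to 18 higher and 0 to 35 lower. Sqle lost its call in 7 alternatives and Mvd in 9, those with 1 of controls 1, 2 and 3 or DECB 4 and 5 left out among them. No scaling moved the median of all genes by more than 0.1. The cause of these changes was not tested. No paired analysis was possible because controls are numbered 1 to 3 and DECB samples 4 to 6. The dim scan 1 arrays limit what can be read of dim probes.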
